A study of Mus musculus with 36 samples.

Results

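Cytochrome P450 enzymes (P450s) of families 1 to 4 were examined in primary mouse hepatocytes exposed to butyrate or β-hydroxybutyrate (βOHB). The set held every protein-coding gene whose symbol starts with *Cyp1*, *Cyp2*, *Cyp3* or *Cyp4* followed by a letter and whose mean exceeded 1 CPM (estimated counts scaled to the library total) in at least 1 hepatocyte group. All levels below, other than those of genes at that limit, are CPM scaled further by trimmed mean of M values (TMM). Of 81 such genes among the 54347 genes of the count table, 42 from 15 subfamilies qualified and 39 did not. Hepatocytes had been obtained by collagenase perfusion from male C57BL/6NHsd mice, attached in medium with dexamethasone and rested overnight without it. They were then exposed for 6 h in Williams E medium to PBS (control), 5 mM βOHB or 5 mM butyrate. Each group had 3 libraries of total RNA, which held between 18366192 and 23085736 counts in hepatocytes. Nothing in the labels says that libraries of a group came from separate cultures or animals, so p-values describe only the spread between these libraries, which may be technical.

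P450s are membrane-bound haem enzymes that insert an oxygen atom into their substrates with electrons passed on by P450 oxidoreductase (*Por*). Families 1 to 3 oxidise drugs, pollutants, steroids and bile acids, mostly in the endoplasmic reticulum of liver cells, whereas family 4 hydroxylates fatty acids and eicosanoids. Nuclear and ligand-activated receptors control many of these genes: AHR acts on *Cyp1a*, CAR (*Nr1i3*) on *Cyp2b*, PXR (*Nr1i2*) on *Cyp3a* and PPARα on *Cyp4a*. Cultured hepatocytes are known to lose much of this expression after isolation. Butyrate is a short-chain fatty acid and βOHB a ketone body that carries an additional hydroxyl group.

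Start-site sequences are shown for 4 genes on which the results below turn: *Cyp2c29*, which responded to βOHB, *Cyp1a1* and *Cyp2r1*, the most strongly lowered by butyrate, and *Cyp4f15*, the most strongly raised. Each is the 250 bases before the RefSeq start site on GRCm38.p6, written 5′ to 3′ on the gene's strand. Capitals mark TATAAA, the TATA box, GCGTG, the core letters that AHR binds, and AGGTCA, a motif of nuclear receptors. The windows lie at chr19:39286835-39287084 (plus strand), chr9:57697363-57697612 (plus strand), chr7:114562973-114563222 (minus strand) and chr17:32685409-32685658 (plus strand), in the order printed.
Cyp2c29: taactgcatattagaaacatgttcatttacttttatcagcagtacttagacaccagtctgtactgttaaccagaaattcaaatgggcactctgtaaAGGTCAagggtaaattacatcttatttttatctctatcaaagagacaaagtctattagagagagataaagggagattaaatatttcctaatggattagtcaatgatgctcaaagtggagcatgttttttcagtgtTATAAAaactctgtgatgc
Cyp1a1: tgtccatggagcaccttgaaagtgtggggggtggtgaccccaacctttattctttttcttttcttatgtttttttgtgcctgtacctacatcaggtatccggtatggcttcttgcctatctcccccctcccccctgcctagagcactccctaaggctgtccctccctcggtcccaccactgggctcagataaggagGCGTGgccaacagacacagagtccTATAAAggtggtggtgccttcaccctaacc
Cyp2r1: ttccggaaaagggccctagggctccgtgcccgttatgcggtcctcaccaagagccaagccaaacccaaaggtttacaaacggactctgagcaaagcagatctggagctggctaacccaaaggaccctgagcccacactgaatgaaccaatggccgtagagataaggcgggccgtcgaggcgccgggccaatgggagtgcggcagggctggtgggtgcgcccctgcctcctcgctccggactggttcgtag
Cyp4f15: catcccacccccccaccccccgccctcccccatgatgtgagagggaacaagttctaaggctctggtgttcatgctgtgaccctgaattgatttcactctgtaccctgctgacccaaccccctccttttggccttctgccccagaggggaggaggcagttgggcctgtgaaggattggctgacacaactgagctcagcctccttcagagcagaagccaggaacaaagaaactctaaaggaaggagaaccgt

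The *Cyp2c29* window held TATAAA 19 bases and AGGTCA 154 bases before the start site. The *Cyp1a1* window held TATAAA at 30 bases and GCGTG at 54 bases. Neither the *Cyp2r1* nor the *Cyp4f15* window held any of these 3 motifs on either strand. The *Cyp2r1* window was the richest in CpG of the 4, with 16 CpG and 61.6% GC, against 0 CpG and 32.8% GC for *Cyp2c29*. RefSeq windows from 250 bases before to 50 after the start were matched to 33 of the 42 genes, whose median GC content was 48.0% against 52.7% over all 32851 windows. Of the 33, 17 (51.5%) held TATAAA on either strand, against 15.7% of all 27025 genes, counting any window of a gene in both. CAAAGT, core letters of the HNF4A motif, stood in 39.4% against 16.1%, AGGTCA in 27.3% against 18.1%, GCAAT, a C/EBP core, in 39.4% against 29.2% and CCAAT in 60.6% against 41.1%. GCGTG stood in 21.2% against 35.2% and GGGCGG, the GC box, in 21.2% against 38.2%. A match is a string of letters and was not tested as a binding site.

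Some P450 genes are close copies, and estimated counts may have been split between them. Of the 42 genes, 27 shared over 10% of their transcripts' 31-base words with another gene, and the median was 19.1%. *Cyp2c70*, *Cyp2c23*, *Cyp2f2* and *Cyp2r1* shared none. *Cyp2c29* shared 10.3%, *Cyp1a1* 5.7%, *Cyp2u1* 4.9% and *Cyp4f15* 7.9%, whereas *Cyp2a5* shared 58.5%, *Cyp2c67* 67.6% and *Cyp4a32* 65.3%. Sums over each subfamily were therefore tested as well.

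One library of another cell type bore on the tests. Myotube butyrate replicate 2 held the hepatocyte transcript *Alb* at 432 CPM, 1.42% of the hepatocyte mean, and liver-enriched P450s at 1.25% to 1.86% of their hepatocyte level. Myotube butyrate replicates 3 and 1 held *Alb* at 95.2 and 23.5 CPM and myotube βOHB replicate 3 at 18.4 CPM, and the other libraries outside hepatocytes held at most 0.951 CPM. The model used all 36 libraries with 1 shared spread per gene, so the counts of P450 genes called are given with and without that library and in the 9 hepatocyte libraries alone. In hepatocytes, *Alb*, *Apoa1*, *Fgb* and *Ahsg* were among the 11 hepatocyte markers found, whose summed level was 70970 to 75670 CPM in control and 74790 to 77840 CPM with butyrate.

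The abundance of the P450 genes in control hepatocytes spanned several orders of magnitude, from *Cyp2c40* to *Cyp2d26*. On the scale of CPM per kilobase of mean transcript length, *Cyp2a5*, the coumarin hydroxylase, was at 384 ± 42.1 (SD, n = 3). Below it came *Cyp2d26* at 243 ± 6.03, *Cyp2d10* at 234 ± 8.97, *Cyp2c70*, which makes muricholic acids in mice, at 228 ± 18.6, and *Cyp2d9* at 211 ± 13.6 CPM per kilobase. Neighbours among these 4 lay no further apart than their SDs added together. *Cyp2a12* followed at 171 ± 2.61 and *Cyp3a11*, the main inducible drug-oxidising *Cyp3a* gene, at 138 ± 20.6 CPM per kilobase. *Cyp2e1*, which oxidises ethanol and acetone, reached 57.6 ± 7.51. The order turned on the length used: per kilobase of the longest transcript, *Cyp2a5* was at 190.5, below *Cyp2d26* (243) and *Cyp2c70* (228), and *Cyp2d10* and *Cyp2d9* were at 158 and 102. Of the summed CPM of the set, *Cyp2d* genes made up 26.9%, *Cyp2a* 20.1%, *Cyp3a* 15.6%, *Cyp2c* 14.8% and *Cyp4v3* 8.78%.

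The set ended in a thin margin at 1 CPM. *Cyp2c40* entered only through its butyrate mean of 1.04 CPM, against 0.456 in control, and was too low to be tested. *Cyp1a1* also exceeded 1 CPM in fewer than all 3 groups. Just outside were *Cyp4f39* (0.948 with butyrate, 0.209 in control), *Cyp2c55* (0.922 and 0.142), *Cyp2a4* (0.158 and 0.807), *Cyp2c39* (0.783 in control) and *Cyp2s1* (0.739 with butyrate). These are values on library totals, and with TMM scaling *Cyp4f39* and *Cyp2c55* would have entered at 1.05 and 1.02.

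**Figure D1:**
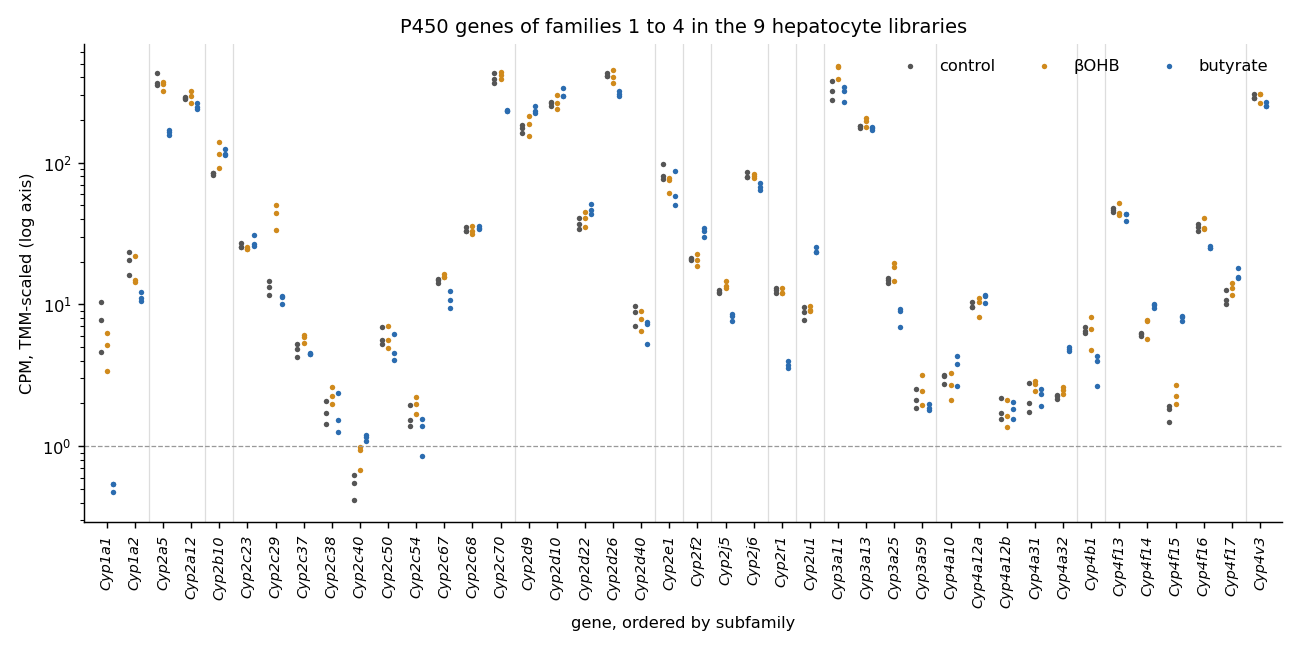
TMM-scaled CPM (log axis) of the 42 P450 genes in each of the 3 control, 3 βOHB and 3 butyrate hepatocyte libraries, 1 point per library, ordered by subfamily with grey lines between subfamilies and a dashed line at 1 CPM. The βOHB points of *Cyp2c29* (33.6 to 50.1 CPM) stand above all others of that gene, and the butyrate points of *Cyp1a1* (0.476 to 0.545 CPM) far below its control points.

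Butyrate changed the P450 genes in both directions. Of 41 tested genes, 18 (43.9%) were called at a false discovery rate (FDR) below 0.05 in the quasi-likelihood test of edgeR, with p-values adjusted by Benjamini and Hochberg's method, 10 lowered and 8 raised. Over all 15340 genes tested, 63.5% were called, 31% raised and 32.4% lowered. The median change of the 41 genes was −0.15 on the log2 scale, against −0.01 for all genes (−0.08 and 0.01 with scaling by library totals alone), and their median absolute change was 0.37 against 0.54. Changes beyond 1 were found in 6 of the 41 and in 28.2% of all genes. Without myotube butyrate replicate 2 the call count was 21 (background 64%), and in the hepatocyte libraries alone it was 22 (background 72.4%), which kept all 18 and added *Cyp2d9* and *Cyp2d10* as raised and *Cyp2d26* and *Cyp2j6* as lowered.

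Markers of non-parenchymal cells and of hepatocytes were also counted, to be read against the 63.5% of all genes called. All 5 tested endothelial markers were lowered by butyrate, and the 6 listed summed to 87.5 to 102 CPM in control and 30.9 to 37.3 CPM with butyrate. Each of the 6 had counts in at least 1 of the 9 hepatocyte libraries, and 1 lay below 1 CPM in control. Of stellate cell markers 4 of 6 tested were lowered and 1 was raised (36.3 to 42.1 CPM in control, 31.7 to 36.9 with butyrate), and of macrophage markers 2 of 5 were lowered (93.6 to 117 and 101 to 120 CPM). Of cholangiocyte markers 1 of 3, *Spp1*, was raised (234 to 264 and 274 to 357 CPM). Of hepatocyte markers, which include *Cyp2c29*, 1 of 11, *Tat*, was raised, and in the hepatocyte libraries alone 5 were raised and 3 lowered (8 of 11, against 72.4% of all genes). Their part in the P450 results was not tested, and in such bulk RNA fewer cells of a type and less RNA per cell cannot be told apart.

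Both *Cyp1a* genes were lowered by butyrate. *Cyp1a1*, the classical AHR target that oxidises polycyclic aromatic hydrocarbons (chr9:57687928-57703824), was at 10.4, 7.74 and 4.61 CPM in control and at 0.476, 0.545 and 0.540 CPM with butyrate. The groups lay far apart, although control libraries differed among themselves by over a factor of 2. Its mean was 14.6-fold lower with butyrate, and the log2 change was −3.85 (SE 0.352, edgeR adjusted p = 2.66e-10). Its neighbour *Cyp1a2*, which oxidises aromatic amines and caffeine, was at 23.4, 20.4 and 16.1 CPM in control and at 11.1, 12.3 and 10.5 CPM with butyrate. That was a smaller change of −0.82 (SE 0.198, edgeR adjusted p = 0.00215) with no overlap.

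Family 2 held both lowered and raised genes. *Cyp2a5* (chr7:26835305-26843548) was at 432, 356 and 363 CPM in control and at 170, 164 and 156 CPM with butyrate. All butyrate libraries stood below every control library, and the log2 change was −1.23 (SE 0.211, edgeR adjusted p = 7.23e-05). *Cyp2a5* shares 48.2% of its 31-base words with *Cyp2a4*, which was itself at 0.940 CPM in control and 0.175 with butyrate. *Cyp2a12*, a steroid hydroxylase on the same chromosome, was at 288 ± 4.39 and 248 ± 12.3 CPM (SD, n = 3), without overlap between the groups, but its change of −0.21 was not called (edgeR adjusted p = 0.451).

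*Cyp2r1*, a vitamin D hydroxylase (chr7:114549682-114562972), was at 12.0, 13.1 and 12.6 CPM in control and at 3.71, 3.96 and 3.54 CPM with butyrate. The libraries within each group agreed closely, and the log2 change was −1.74 (SE 0.154, edgeR adjusted p = 2.39e-11). *Cyp2u1*, a hydroxylase of long-chain fatty acids (chr3:131288441-131303227), moved the other way, from 9.65, 8.85 and 7.80 CPM to 23.4, 23.4 and 25.4 CPM. This was a rise of 1.46 (SE 0.0931, edgeR adjusted p = 1.55e-14), or 2.75-fold. Both genes are the sole members of their subfamilies.

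The *Cyp2c* genes, a cluster on chromosome 19 with 10 genes in the set, were called for 2 of 9 tested, both lowered, against 63.5% of all genes (32.4% lowered). *Cyp2c70* was at 362, 388 and 425 CPM in control and at 235, 233 and 233 CPM with butyrate, a log2 change of −0.74 (SE 0.215, edgeR adjusted p = 0.00428). *Cyp2c67* was at 15.0, 14.3 and 14.9 CPM in control and at 9.37, 12.3 and 10.7 CPM with butyrate (log2 change −0.45, edgeR adjusted p = 0.0101), a call lost without butyrate replicate 1 (edgeR adjusted p = 0.0584). The other 7 had changes between −0.37 (*Cyp2c54*) and 0.10 (*Cyp2c23*). *Cyp2c29* was at 11.6, 14.6 and 13.4 CPM in control and at 11.3, 11.5 and 10.1 CPM with butyrate, and its change of −0.26 had a 95% interval of −0.75 to 0.23.

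*Cyp2b10*, the classical CAR target, was at 82.2, 84.8 and 84.9 CPM in control and at 125, 115 and 113 CPM with butyrate, a rise of 0.49 (SE 0.182, edgeR adjusted p = 0.0237). The call was lost on leaving out any control library or butyrate replicate 1 (edgeR adjusted p 0.0503 to 0.0770), although the groups did not overlap. *Cyp2f2*, which oxidises naphthalene, was at 20.6, 20.9 and 21.4 CPM in control and at 29.9, 33.1 and 34.7 CPM with butyrate, a rise of 0.64 (edgeR adjusted p = 0.00241). *Cyp2j5*, an arachidonic acid epoxygenase, was at 12.1, 12.3 and 12.6 CPM in control and at 8.52, 7.62 and 8.34 CPM with butyrate (log2 change −0.60, edgeR adjusted p = 0.00507). *Cyp2j6* had a change of −0.26 that was called only in the hepatocyte libraries alone.

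*Cyp2d* genes, on chromosome 15, split by direction. *Cyp2d22* rose from 37.0, 41.0 and 33.9 CPM to 51.0, 46.3 and 43.7 CPM (log2 change 0.34, edgeR adjusted p = 0.00203). *Cyp2d9*, a testosterone hydroxylase, was at 176, 184 and 162 CPM in control and at 250, 230 and 224 CPM with butyrate, and *Cyp2d10* was at 261 ± 9.98 and 309 ± 21.0 CPM (SD, n = 3). *Cyp2d26* was at 409, 407 and 426 CPM in control and at 320, 296 and 304 CPM with butyrate. None of these 3 was called in the model of 36 libraries (changes 0.43, 0.25 and −0.43), whereas all 3 were called in the hepatocyte libraries alone (edgeR adjusted p 0.000191, 0.00196 and 0.000251). *Cyp2e1* was at 97.6, 80.5 and 76.7 CPM in control and at 57.9, 87.6 and 50.3 CPM with butyrate, and butyrate replicate 2 lay within the control range.

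Of the 4 *Cyp3a* genes only *Cyp3a25* was called, against 63.5% of all genes. It was at 15.4, 14.2 and 14.9 CPM in control and at 8.95, 9.26 and 6.90 CPM with butyrate, a change of −0.82 (SE 0.165, edgeR adjusted p = 0.000492). *Cyp3a11* was at 278, 374 and 321 CPM in control and at 340, 322 and 268 CPM with butyrate, with overlapping groups and an interval of −0.66 to 0.54. *Cyp3a13* was at 180 ± 3.92 and 175 ± 3.76 CPM (SD, n = 3), with a narrower interval of −0.31 to 0.24.

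Family 4 held the largest rise. *Cyp4f15*, of a subfamily that hydroxylates leukotrienes and fatty acids (chr17:32685627-32703352), was at 1.82, 1.90 and 1.48 CPM in control and at 8.20, 7.67 and 8.22 CPM with butyrate. No library of either group came near the other, and the rise was 4.64-fold, or 2.21 on the log2 scale (SE 0.227, edgeR adjusted p = 5.98e-07). Its chromosome 17 neighbours *Cyp4f14*, which inactivates leukotriene B4, and *Cyp4f17* also rose, by 0.67 and 0.55 (edgeR adjusted p 0.00585 and 0.000479). *Cyp4f16* fell from 32.8, 35.3 and 37.0 CPM to 25.1, 25.6 and 25.1 CPM (log2 change −0.47, edgeR adjusted p = 9.39e-05), and *Cyp4f13* had a change of −0.15 that was not called.

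Among the *Cyp4a* genes, fatty acid hydroxylases in tandem on chromosome 4, *Cyp4a32* rose from 2.26, 2.15 and 2.30 CPM to 4.82, 4.70 and 5.04 CPM (log2 change 1.11, edgeR adjusted p = 0.000121). It shares 51.2% of its 31-base words with *Cyp4a10*, which was at 3.03 ± 0.237 and 3.59 ± 0.856 CPM (SD, n = 3) and not called. *Cyp4b1* was at 6.52, 6.94 and 6.26 CPM in control and at 2.65, 4.01 and 4.32 CPM with butyrate (log2 change −0.85, edgeR adjusted p = 0.000322). *Cyp4v3*, the mouse counterpart of a fatty acid hydroxylase mutated in human crystalline retinal dystrophy, was at 293 ± 11.2 and 258 ± 8.93 CPM (SD, n = 3) and not called.

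Leaving out each control or butyrate hepatocyte library in turn kept 15 of the 18 calls. Besides *Cyp2b10* and *Cyp2c67*, *Cyp1a1* dropped below the limit for testing in some of these sets. Butyrate and control libraries did not overlap for 26 of the 41 genes, 10 above and 16 below, against 68.5% of all genes tested (33% above, 35.5% below). At P below 0.001, 10 of the 41 passed, against 49.3%. DESeq2 did not call *Cyp2a5*, *Cyp2b10* or *Cyp2c70* (DESeq2 adjusted p 0.351, 0.540 and 0.524).

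**Figure D2:**
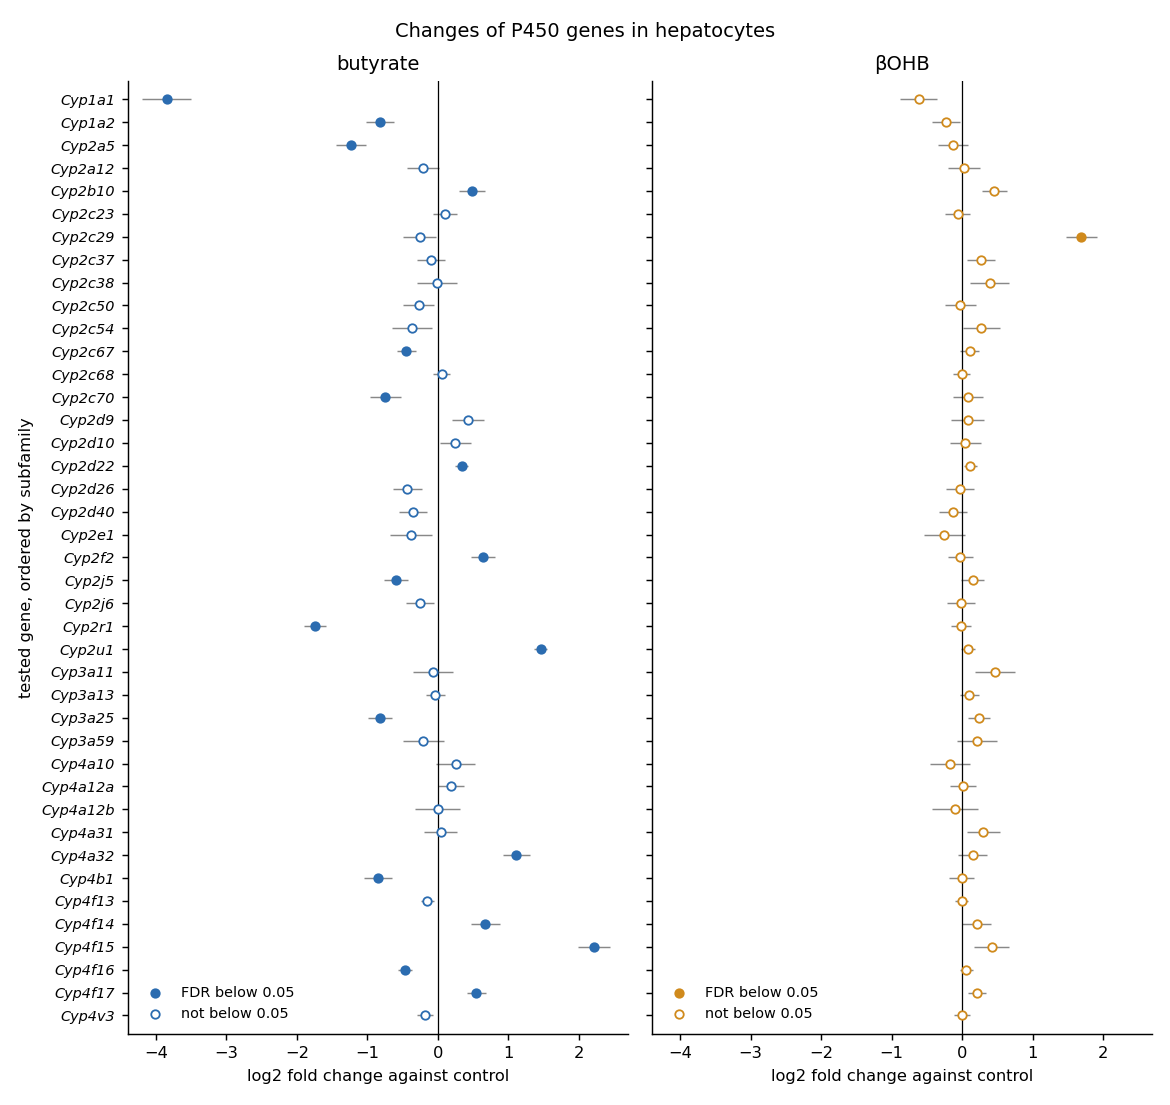
Log2 fold change against control of the 41 tested P450 genes with butyrate (left) and βOHB (right) from the 36-library model, with bars of 1 SE, filled where the FDR was below 0.05 and open otherwise. With butyrate 18 genes are filled, from *Cyp1a1* at −3.85 to *Cyp4f15* at 2.21, and with βOHB only *Cyp2c29* is filled, at 1.69.

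With βOHB 1 of the 41 genes was called. This was *Cyp2c29*, a drug-metabolising enzyme that also forms arachidonic acid epoxides (chr19:39269405-39330713). It was at 11.6, 14.6 and 13.4 CPM in control and at 50.1, 44.2 and 33.6 CPM with βOHB. All βOHB libraries stood above every control library, the lowest by over a factor of 2, and the mean was 3.23-fold higher. The log2 change was 1.69 (SE 0.218, 95% interval 1.22 to 2.16, edgeR adjusted p = 0.0354), and *Cyp2c29* was the single gene called among all 15340 tested (0.00652%). In the hepatocyte libraries alone, and also without myotube butyrate replicate 2, it was again the single gene called (0.00867% and 0.00655% of those tested, edgeR adjusted p 3.87e-05 and 0.000471). The adjusted p was 2.54e-10 with limma-voom and 4.53e-15 with DESeq2.

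With 1 hepatocyte library left out, the size of the *Cyp2c29* rise stayed between 1.56 and 1.84. The edgeR adjusted p was 0.186, 0.127 and 0.110 without control replicate 1, 2 or 3 and 0.306, 0.0355 and 0.0444 without βOHB replicate 1, 2 or 3, so 4 of these 6 sets lost the call. The gene shares 5.4% of its 31-base words with *Cyp2c39*, which lies below 1 CPM in every hepatocyte group.

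At an unadjusted p below 0.05, 3 of 41 genes passed, against 5.51% of all genes. Besides *Cyp2c29* these were *Cyp2b10* and *Cyp1a1*. *Cyp2b10* was at 115, 140 and 91.2 CPM with βOHB, all above its control libraries (log2 change 0.46, edgeR adjusted p = 0.831). *Cyp1a1* was at 3.36, 6.26 and 5.20 CPM, which overlapped its control range (log2 change −0.62, edgeR adjusted p = 0.858). *Cyp3a11* was at 482, 472 and 388 CPM with βOHB, all above its control libraries of 278 to 374 CPM, with a change of 0.47 and an interval of −0.13 to 1.06. In the hepatocyte libraries alone its interval was 0.23 to 0.70, and it was not called (edgeR adjusted p = 0.985). Without a filter on low counts the test called *Cyp2b10* and *Cyp3a11* too (edgeR adjusted p 0.000485 and 9.52e-05), 3 of the 42 genes, against 0.149% of the 32246 genes then tested.

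Across the 41 genes, βOHB and control libraries did not overlap for 9, 8 of them above and 1 below, against 6.71% of all genes tested (3.12% above, 3.59% below). Those above were *Cyp2b10*, *Cyp2c29*, *Cyp2c37*, *Cyp2c67*, *Cyp2j5*, *Cyp3a11*, *Cyp4a32* and *Cyp4f15*, and *Cyp2c23* lay below. Most were small differences: *Cyp2c67* was at 14.7 ± 0.430 CPM in control and 15.9 ± 0.345 CPM with βOHB (SD, n = 3). The median change of the 41 genes was 0.06, against 0.00 over all genes. For *Cyp2r1* and *Cyp2u1*, which responded strongly to butyrate, the intervals with βOHB were −0.30 to 0.27 and −0.11 to 0.29.

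At the matched dose of 5 mM and time of 6 h, butyrate and βOHB, which differ by a hydroxyl group, were compared directly for all 41 genes. The edgeR test called 18, 7 higher and 11 lower with butyrate, against 63.5% of all genes (30.5% higher, 33% lower). Without myotube butyrate replicate 2, 21 were called, against 64.1%, and in the hepatocyte libraries alone 27, against 72.4%. *Cyp2c29* was lower with butyrate by a log2 difference of −1.95 (SE 0.220, edgeR adjusted p = 1.67e-06) and *Cyp1a1* by −3.23 (SE 0.360, edgeR adjusted p = 1.13e-08). *Cyp4f15* was higher with butyrate by 1.79 and *Cyp2u1* by 1.37, and *Cyp2r1* was lower by −1.73.

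Other genes were not called between the compounds in the model of 36 libraries. *Cyp2b10* was at 118 ± 6.65 CPM with butyrate and 115 ± 24.3 CPM with βOHB (SD, n = 3), with an interval of the log2 difference of −0.35 to 0.40. *Cyp3a11* was at 310 ± 37.3 and 448 ± 51.9 CPM (SD, n = 3), with an interval of −1.13 to 0.07, but its libraries did not overlap and it was called lower with butyrate in the hepatocyte libraries alone (log2 difference −0.46, edgeR adjusted p = 0.00194). *Cyp2e1* had an interval of −0.74 to 0.49. Both contrasts with control use the same control libraries, so no likeness between them was computed. Leaving out 1 hepatocyte library in turn kept 13 of the 18 differences. *Cyp4f14*, *Cyp1a2*, *Cyp2d22* and *Cyp4f17* lost the call in at least 1 set, and *Cyp1a1* could not be tested in some.

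Summed over their set genes, 8 of 15 subfamilies were called with butyrate, against 63.5% of all features, and 5 without control replicate 3. In the hepatocyte libraries alone 10 were called, against 72.4%, with *Cyp2j* added as lowered and *Cyp4a* as raised (edgeR adjusted p 0.00661 and 0.00237). At P below 0.001 4 passed, against 49.3%. *Cyp1a* fell from 27.5 ± 6.57 to 11.8 ± 0.920 CPM (SD, n = 3), a log2 change of −1.22. *Cyp2a* fell from 671 ± 38.1 to 412 ± 17.1 CPM (log2 change −0.70, edgeR adjusted p = 0.0448) and *Cyp2c* from 494 ± 36.0 to 332 ± 4.85 CPM (log2 change −0.57, edgeR adjusted p = 0.0147). *Cyp2r* and *Cyp4b* fell and *Cyp2b*, *Cyp2f* and *Cyp2u* rose, each through 1 gene. The *Cyp2d* sum was at 900.4, 905 and 878 CPM in control and at 962, 877 and 874 CPM with butyrate, a change of 0.02 in which opposite changes of its genes were added. The *Cyp4f* sum was 100.4 ± 3.48 CPM in control and 101.2 ± 3.72 CPM with butyrate (SD, n = 3). For *Cyp3a* the change was −0.07.

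With βOHB, none of the 15 sums was called in edgeR, limma-voom or DESeq2, against 0% of all features in edgeR, and 1, *Cyp2b*, had an unadjusted edgeR p below 0.05. Without a filter on low counts 2 sums were called, against 0.161% of all features. The *Cyp2c* sum was 547 ± 30.5 CPM with βOHB (SD, n = 3), and the interval of its log2 change was −0.26 to 0.56. The *Cyp3a* sum was 660 ± 67.1 CPM against 521 ± 44.3 in control, with a change of 0.34. In the hepatocyte libraries alone the intervals were 0.01 to 0.29 for *Cyp2c* and 0.16 to 0.53 for *Cyp3a*, and neither was called. Between butyrate and βOHB, 6 sums were called, against 63.6% of all features, and 10 in the hepatocyte libraries alone, against 72.4%, *Cyp3a* among them (edgeR adjusted p = 0.00237). Over the whole set, the summed level was 3331 ± 33.8 CPM in control, 3525 ± 328 with βOHB and 2861 ± 121 with butyrate (SD, n = 3). The ratio to control was 0.859 with butyrate and 1.06 with βOHB.

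**Figure D3:**
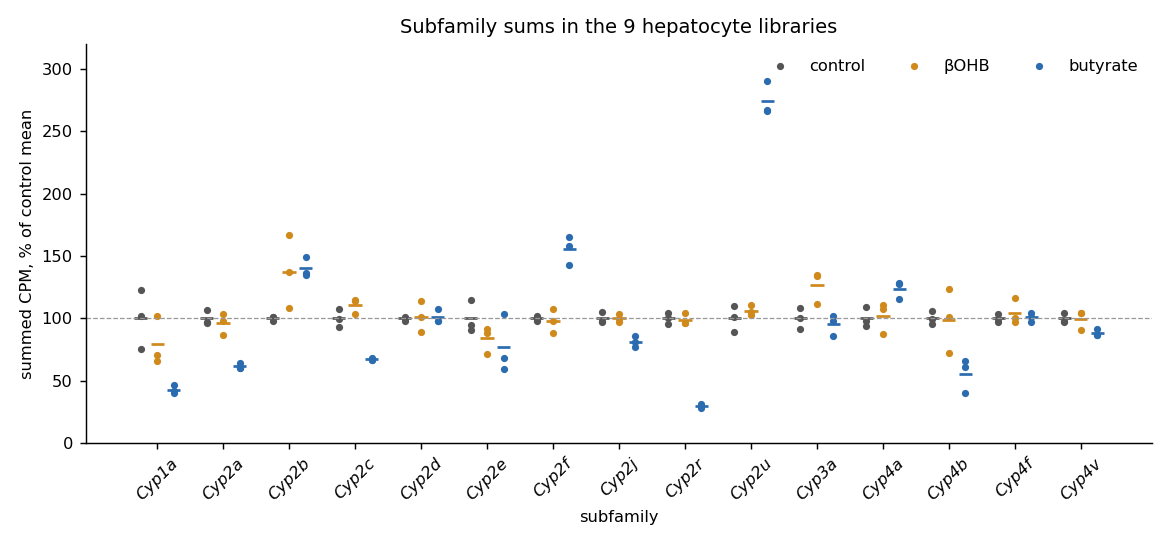
Summed TMM-scaled CPM of the set genes of each of the 15 subfamilies, as percent of the control mean, with 1 point per hepatocyte library, short bars for group means and a dashed line at 100%. Butyrate points of *Cyp1a*, *Cyp2a*, *Cyp2c*, *Cyp2r* and *Cyp4b*, and of *Cyp2j* and *Cyp4v*, which were not called in the 36-library model, lie below the control points. Those of *Cyp2b*, *Cyp2f* and *Cyp2u*, and of *Cyp4a*, which was not called in that model, lie above, and the other 4 overlap with control.

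The genes that serve and control P450s were followed in lists, whose counts stand beside the 63.5% of all genes called with butyrate (31% raised, 32.4% lowered). Of 7 electron transfer partners, butyrate raised 2 and lowered 3 (71.4% called). *Por* rose from 432, 426 and 429 CPM to 617, 582 and 579 CPM (log2 change 0.47, edgeR adjusted p = 2.19e-07), and the haem-binding *Pgrmc2* rose by 0.65. *Cyb5b*, a cytochrome b5, fell by 0.23, *Cyb5r1* by 0.37 and *Pgrmc1* by 0.17. In the hepatocyte libraries alone *Pgrmc1* was not called and *Cyb5r3* was called as raised. That gave 3 raised and 2 lowered, against 72.4% of all genes called. Of 8 haem synthesis genes 5 rose and 1 fell (75% called). *Alas1*, the rate-limiting enzyme of the pathway, rose from 151, 154 and 140 CPM to 252, 252 and 233 CPM (log2 change 0.73, edgeR adjusted p = 5.18e-10). Of 4 haem degradation genes only *Blvrb* was called, lowered by −0.27 on the log2 scale. *Hmox1*, at 412 ± 36.2 CPM in control and 592 ± 36.0 CPM with butyrate (SD, n = 3), was not called (log2 change 0.52). In the hepatocyte libraries alone 2 were called, *Blvrb* as lowered and *Hmox1* as raised, against 72.4% of all genes.

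Of 5 xenobiotic receptors and partners, 4 were lowered and 1 raised (all called, against 63.5% of all genes). *Nr1i2*, which encodes PXR, fell from 36.2, 38.6 and 35.1 CPM to 18.5, 15.7 and 14.8 CPM (log2 change −1.16, edgeR adjusted p = 2.53e-07), and *Nr1i3*, which encodes CAR, from 6.33, 7.37 and 5.73 CPM to 3.55, 3.12 and 4.02 CPM (log2 change −0.87). Their partners *Rxra* and *Rxrb* fell by 0.83 and 0.72, and *Nr3c1*, the glucocorticoid receptor, rose by 0.57. *Cyp2b10*, which CAR acts on, was called as raised, a call lost with some libraries left out and with DESeq2. *Cyp3a11*, which PXR acts on, was not called. The part of these receptors in the P450 results was not tested. Of 6 genes of the AHR pathway 3 were lowered, among them *Arnt* (−0.33) and *Nqo1* (−1.19), and 1 raised, the target gene *Tiparp*, from 37.3, 33.9 and 37.5 CPM to 132, 135 and 121 CPM (log2 change 1.84). Another of the 6, *Ahrr*, was at 0 in every hepatocyte library and could not be called. *Ahr* itself had a change of −0.07 that was not called.

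Of 7 PPARα pathway genes 5 rose, led by *Acot1*, an acyl-CoA thioesterase (3.76), and the coactivator *Ppargc1a* (2.91). *Ppara* was not called (0.02), and of the *Cyp4a* genes, PPARα targets, only *Cyp4a32* was. The part of PPARα in the P450 results was not tested. Of 15 liver transcription factors 10 were lowered and 3 raised (86.7% called, against 63.5% of all genes). *Hnf4a* fell from 650, 625 and 658 CPM to 314, 306 and 304 CPM (log2 change −1.06, edgeR adjusted p = 0.000588), *Nr0b2* fell by 2.08, and *Hlf*, a PAR bZIP factor, rose by 2.33. βOHB called none of the genes of these lists.

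**Figure D4:**
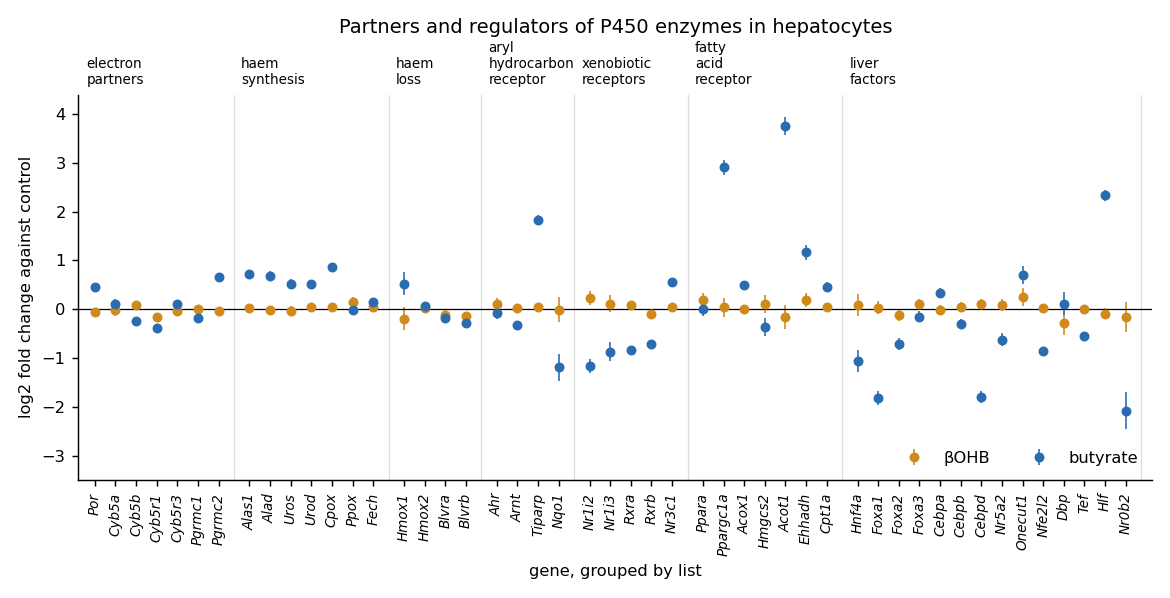
Log2 fold change against control in hepatocytes with butyrate (blue) and βOHB (orange) for genes of the electron transfer, haem, receptor and liver factor lists, with bars of 1 SE. Blue points range from *Nr0b2* at −2.08 to *Acot1* at 3.76, whereas no orange point was called.

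Other detoxification genes were also measured. Of 10 tested P450s of other families, butyrate lowered 6 and raised 3 (90% called, against 63.5% of all genes). *Cyp26b1*, a retinoic acid hydroxylase, fell from 7.02, 9.28 and 8.04 CPM to 0.900, 1.09 and 0.600 CPM (log2 change −3.20), and *Cyp7b1*, an oxysterol hydroxylase, fell by 1.23. *Cyp27a1*, a sterol hydroxylase of bile acid synthesis, rose by 0.29. Of 13 glucuronidation genes 4 fell (30.8% called), among them *Ugt2b35* (−1.54), and none rose, whereas in the hepatocyte libraries alone 5 fell and 3 rose. Of 8 sulfotransferases 2 rose, *Sult4a1* and *Sult2b1*, both below 1 CPM in control, and in the hepatocyte libraries alone both were too low to be tested and none of the other 6 was called. Of 24 genes of glutathione transfer 7 rose, led by *Gstt3* (2.36), and 7 fell, among them *Gsta1* (−0.95). βOHB called none of them.

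Zonation markers that are not P450s were called in shares of 62.5% and 50%, against 63.5% of all genes. Of 8 centrilobular genes, which mark the region where *Cyp1a2* and *Cyp2e1* are normally high, butyrate raised 5 and lowered none (summed 185 to 198 CPM in control, 333 to 340 with butyrate), among them *Glul* (0.87) and *Axin2* (3.98). Of the 8, 1 lay below 1 CPM in control. In the hepatocyte libraries alone 6 could be tested and 5 were raised, against 72.4% of all genes called. Of 8 periportal genes 2 rose and 2 fell, *Pck1* by 1.35. *Cyp1a2* fell and *Cyp2e1* was not called, and the part of zonation in the P450 results was not tested.

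In the other cell types, 12 of the 42 genes exceeded 1 CPM outside the myotube butyrate libraries. The log2 change with butyrate in hepatocytes was set against its mean over adipocytes, macrophages and myotubes, for genes with counts in every control and butyrate group. Of 9 such genes among the 12, the difference was called for 3, against 50.4% of all such genes (46.3% of all genes tested). With limma-voom and DESeq2 5 were called, against 50.1% and 51%. It was also called for *Cyp1a1* (−4.92, SE 1.39, edgeR adjusted p = 0.00486), which reached at most 0.355 CPM (on library totals) in those cell types. *Cyp2r1* fell more in hepatocytes than in that mean, by a log2 difference of −0.90 (SE 0.225, edgeR adjusted p = 0.00144). Its change was −0.60 in adipocytes and −1.22 in macrophages, both called, and −0.72 in myotubes, and it lay below 1 CPM in macrophages and myotubes. *Cyp2u1* rose in all 4 cell types, by 0.66 in adipocytes, 1.91 in macrophages and 0.83 in myotubes. The difference for hepatocytes was 0.33 (SE 0.115, edgeR adjusted p = 0.0202), although the rise in macrophages was the larger.

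*Cyp2d22* rose less in hepatocytes than in that mean, with a difference of −0.94 (SE 0.163, edgeR adjusted p = 1.88e-05). Its change was 0.67 in adipocytes, 0.50 in myotubes and 2.65 in macrophages, where it went from 0.169, 0.151 and 0.173 CPM to 1.13, 0.857 and 1.23 CPM. Without myotube butyrate replicate 2, *Cyp4b1* (−1.58, edgeR adjusted p = 0.0238) and *Cyp4f16* (−0.29, edgeR adjusted p = 0.0370) were called too, giving 5 of 9 against 50.8% (46.7% of all genes tested), and 5 were also called without myotube control replicate 1. The *Cyp4b1* value rests on cell types in which all but adipocytes hold under 0.2 CPM. Genes such as *Cyp2a5* that were at 0 in adipocytes and macrophages could not be compared in this way. With them, 20 genes exceeded 1 CPM in some group of another cell type, 8 of them through the myotube butyrate libraries alone, and limma-voom called 10 and DESeq2 11 of the 20, against 47.5% and 47.6% of all genes.

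Adipocytes held *Cyp4b1* at 25.9 ± 3.02 and *Cyp2e1* at 28.8 ± 10.1 CPM in control (SD, n = 3), where the butyrate changes of −0.18 and −0.46 were not called. Macrophages held *Cyp4v3* at 117, 118 and 117 CPM in control and at 68.7, 68.6 and 67.9 CPM with butyrate, a fall of 0.78 (edgeR adjusted p = 9.54e-07). *Cyp4f16* fell in adipocytes (−0.45) and myotubes (−0.52) and rose in macrophages (0.34), and βOHB lowered it in myotubes (−0.47, edgeR adjusted p = 0.0343). P450s of these families outside the set were high in other cells, with *Cyp1b1* at 169 CPM in βOHB-treated adipocytes, *Cyp4f18* at 11.5 CPM in control macrophages and *Cyp2j9* at 10.4 CPM in βOHB-treated adipocytes.

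**Figure D5:**
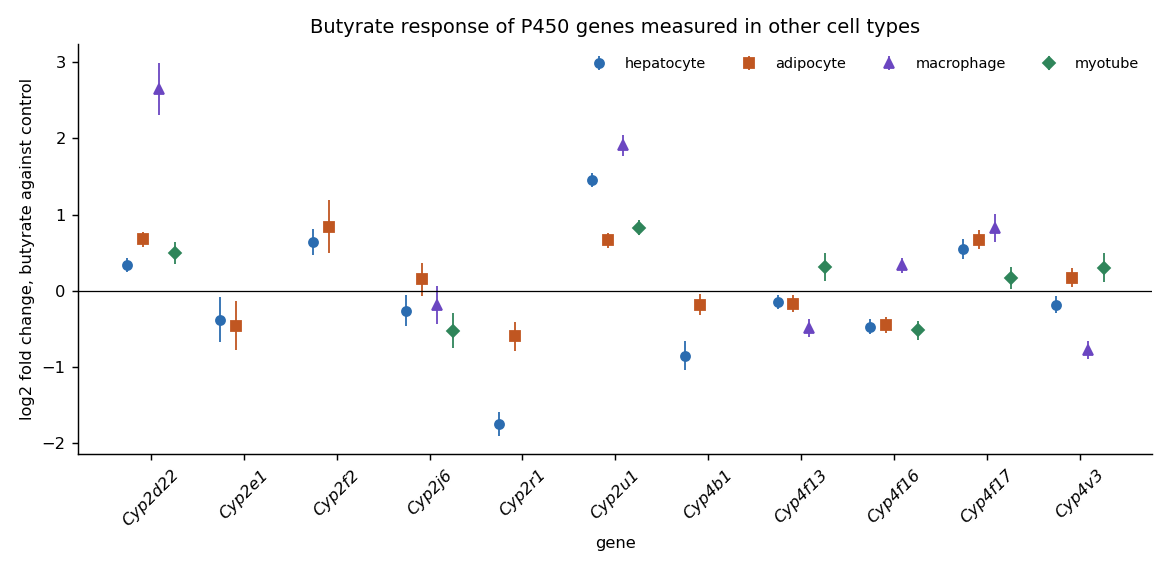
Log2 fold change of butyrate against control, with bars of 1 SE, for 11 P450 genes in hepatocytes and in each other cell type where the control or butyrate mean exceeded 1 CPM. *Cyp2u1* lies above 0 in all 4 cell types, whereas *Cyp4f16* is above 0 in macrophages and below 0 in the other 3.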

How the data were processed

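Per the labels and the study's methods, the authors aligned reads to the GRCm38.p6 transcriptome with Salmon 1.2.1 and deposited estimated counts per gene (expected counts), which were rounded here to whole numbers. All 36 libraries (18366192 to 23221353 counts each) were fitted with edgeR 4.0.16 (quasi-likelihood test, TMM factors, 12 groups) in R 4.3.3, keeping 15340 genes above 1 CPM in at least 6 libraries. FDR below 0.05 (Benjamini-Hochberg over all genes tested) was the call. On simulated data with 200 changed genes among 15340, the script recovered 92% of 2-fold rises, with 14 false calls. The real butyrate contrast called 63.5% of genes, so the simulation does not measure recovery in that setting. Libraries of the same group differed beyond counting noise (chi-square per degree of freedom 4.47 to 17.8 over the 9 hepatocyte pairs), and each counted as 1 sample.

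Membership used CPM on library totals. Subfamily sums replaced their genes in a second fit. Named were *Cyp2c29*, the most abundant gene of each subfamily, up to 10 genes per direction of smallest P with butyrate, genes of P below 0.001 with βOHB, genes near the limit of 1 CPM, genes above 1 CPM in other cells, and genes of the lists. The listed genes and the set were chosen with earlier results of these data known. Alternatives were limma-voom (limma 3.58.1), DESeq2 1.42.0, other scaling and filters, hepatocyte libraries alone, libraries left out in turn and a replicate block. Transcript words shared between genes and gene positions came from a GENCODE annotation of GRCm38, and start-site windows from RefSeq. Some listed genes are counted but not reported here by name or value.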

Additional observations from a re-analysis of the deposited data

Results flagged for a closer look

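The butyrate response differed between hepatocytes and the mean of adipocytes, macrophages and myotubes, tested as an interaction, for 4 of the 41 P450 genes tested, against 46.3% of all genes. Most of the 41 lie at or near 0 in the other cell types and could not be compared. The log2 difference was 0.3258 for *Cyp2u1*, −0.8964 for *Cyp2r1*, −0.9361 for *Cyp2d22* and −4.915 for *Cyp1a1*, which lay below 1 CPM outside hepatocytes. The myotube term of these differences includes butyrate replicate 2. Without it the differences were 0.33, −0.89, −0.91 and −4.96, and all 4 were still called.

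Hepatocyte RNA appeared in a myotube library, which is in none of the hepatocyte groups but shares the spread per gene used in their tests. Calls with butyrate in hepatocytes numbered 18 with that library and 21 without it, against 63.5% and 64% of all genes. *Alb* in myotube butyrate replicate 2 stood at 1.423% of the hepatocyte mean, whereas the 3 myotube control libraries held at most 0.000145%. In the same library *Cyp2c70* was at 5.13 CPM, *Cyp3a11* at 5.94 CPM and *Cyp2a5* at 3.92 CPM, and all 3 were at 0 in the myotube control libraries.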

How the results depend on the processing

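With P below 0.001, the threshold of the study, 10 P450 genes and 4 subfamily sums passed with butyrate, each against 49.3% of all genes or features. With βOHB, 3 genes and 2 sums were called without a filter on low counts, against 0.149% of all genes and 0.161% of all features. Leaving out libraries gave 16 to 21 genes with butyrate, 0 to 1 with βOHB (0 without control replicate 1, 2 or 3 or βOHB replicate 1), 14 to 22 between the compounds, 5 to 9 sums with butyrate (5 without control replicate 3), 6 to 8 sums between the compounds and 2 to 5 of the 20 genes in the comparison of cell types. The last was 5 without myotube control replicate 1 or myotube butyrate replicate 2, 10 with limma-voom and 11 with DESeq2 (47.5% and 47.6% of all genes). Of the 9 with counts in every group, a limit chosen after seeing the data, both tools called 5. In the hepatocyte libraries alone 10 sums differed between the compounds, against 72.4% of all features. The log2 rise of *Cyp2c29* with βOHB was 1.56 to 1.84 with a library left out. The summed ratio of butyrate to control was 0.901 on library totals. DESeq2 kept 15 of the 18 butyrate calls and lost *Cyp2a5* (adjusted p = 0.351), *Cyp2b10* (0.540) and *Cyp2c70* (0.524), and the cause was not tested. No result reversed. Scaling by library totals moved the share of raised among called genes from 48.9% to 53.7%, the median butyrate change of the P450 genes from −0.15 to −0.08, and the median of all genes by under 0.1 on the log2 scale.

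The labels number replicates alike in every group, but same-numbered libraries did not deviate together (correlations −0.178 to 0.057, against −0.0883 to 0.194 for differently numbered ones), so the numbers were not taken as pairs. With a replicate block, all 18 butyrate calls were kept and 0 genes were called with βOHB, where *Cyp2c29* rose by 1.68 (edgeR adjusted p = 0.0929).

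At these depths *Cyp2c40* was too low to be tested, and genes near 1 CPM have wide intervals. Values of close copies, such as *Cyp2a5* and *Cyp4a32*, depend on how estimated counts were shared.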

Other observations

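Of 29 P450 pseudogenes of families 1 to 4 in the table, the 3 above 1 CPM in a hepatocyte group were all of the *Cyp2d* subfamily, exceeded that level with butyrate, and were too low to be tested. Being above the limit through that group alone, they had to differ. *Cyp2d37-ps* was at 0.501, 0.430 and 1.06 CPM in control hepatocytes and at 4.02, 3.81 and 3.36 CPM with butyrate. *Cyp2d41-ps* was at 0.409 ± 0.139 CPM in control and at 3.02 ± 0.432 CPM with butyrate (SD, n = 3). *Cyp2d38-ps* was at 0.0627, 0 and 0.118 CPM in control and at 1.38, 1.34 and 0.660 CPM with butyrate. With βOHB the 3 pseudogenes stayed at 1.26 CPM or below in every library. Adding all genes and pseudogenes of the subfamily to the *Cyp2d* sum gave a butyrate change of 0.03. These 3 were named after their values were seen.

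*Cyp2j6* in myotube control replicate 1 was at 37.8 CPM, against 12.1 and 13.3 CPM in the other control libraries of myotubes.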
